A study of Danio rerio with 12 samples.

Results

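The genes described here were the JUN, ATF3/JDP2 and BATF genes of the AP-1 family in adult zebrafish ventricles. The 9 members, jun, junba, junbb, jund, atf3, jdp2a, jdp2b, batf and batf3, were taken by name from expression tables of 25281 genes, and all 9 were found. Total RNA was sequenced from pooled ventricles, in 10 libraries with a table. Hearts that were uninjured and hearts at 3 days post-amputation (dpa) of the ventricle apex had 1 library each of WT fish (AB*) and of dusp6 mutant fish (dusp6 pt30a/pt30a), all labelled experiment 1. At 3 dpa there were 3 more libraries each of WT and of foxm1 mutant hearts, labelled experiments 2, 3 and 4 and called replicates 2, 3 and 4 here, so that WT hearts at 3 dpa had 4 libraries in all. The labels also list 1 WT and 1 dusp6 mutant sample at 7 dpa. These had no table of their own and were described only through a group mean of the authors. The sample labels give the foxm1 alleles as sa10708/sa10708, sa10708/sa10709 and sa10708/sa10710 in experiments 2, 3 and 4, whereas the methods of the study name sa10708 homozygotes throughout. Fish were adults, hearts were pooled, and the methods of the study give a minimum number of hearts pooled per condition but not the number in each library. The p-values therefore rest on how far pools of hearts differ and say nothing of single fish.

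AP-1 is a family of transcription factors that bind DNA as dimers of basic leucine zipper proteins. JUN proteins pair with each other, with FOS proteins or with ATF and BATF proteins, and the partner sets which sites are bound and whether transcription is activated or repressed. The genes of JUN and ATF3 are immediate early or stress-response genes, switched on within minutes to hours of growth factors, wounding or stress through the JNK and ERK kinases, and AP-1 activity is known from regenerating zebrafish heart muscle. The JDP2 proteins are related to ATF3 and mostly repress AP-1 sites in mammals. BATF proteins lack a domain that activates transcription and are best known from lymphocytes and, for BATF3, dendritic cells of mice.

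Experiment 1 was sequenced more deeply, with 54229254 to 67236702 reads in genes per library, than experiments 2 to 4, with 17654534 to 21245883. The foxm1 transcript did not separate the genotypes, at 9.94 to 17.0 CPM (counts scaled to a common library size) in the 4 WT libraries at 3 dpa and 12.1 to 14.0 in the 3 foxm1 mutant libraries, and the dusp6 transcript was not lower in dusp6 mutants than in WT hearts of the same state. Transcript level therefore gives no check of the mutant labels. The heart muscle markers myl7, tnnt2a and tnni1b were high in every library, with lowest values of 12011, 3703 and 822 TPM (a level scaled for exon length and depth). Mitochondrial transcripts took 16.0% to 16.9% of the reads in uninjured libraries of experiment 1 and 8.001% to 12.6% at 3 dpa, and haemoglobin transcripts took 0.954% to 1.35% and 3.16% to 5.17%.

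In the annotation of the tables (GRCz11), jun lies on chromosome 20 from 15552657 to 15554606 on the plus strand, as a single exon. The paralogues junba (chromosome 1, 51732979 to 51734535) and junbb (chromosome 3, 7654655 to 7656059), both matching mammalian JUNB by symbol, and jund (chromosome 2, 56125174 to 56131312) lie on the minus strand of their chromosomes. Chromosome 20 holds 4 further members. The genes atf3 (37794633 to 37800737, plus strand) and batf3 (37812699 to 37813863, minus strand) are 11961 bases apart, with 0 annotated genes lying wholly between them. The 74007-base span of batf (46572550 to 46646556, plus strand) contains the whole of jdp2b (46586678 to 46595151), 8474 bases on the same strand. The remaining member, jdp2a, lies on chromosome 17 from 50195267 to 50220228 on the minus strand.

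The kinds of reads counted for batf and jdp2b limit what their values mean. Besides holding jdp2b, the span of batf overlaps another annotated gene on the opposite strand over 31752 bases. The part of either overlap in the read shares given here was not tested. Over the 10 libraries, 34.5% of the reads of jdp2b and 37.8% of those of batf were uniquely mapped, against 99.7% to 100% for the other 7 members. Of the reads of batf, 81.6% lay in introns, and exon reads numbered only 1 to 23 per library, so that its read count was not mainly a measure of mature transcript. Introns also held 47.5% of the reads of jdp2a. In jun, junba and jund, by contrast, introns held 0.390% of the reads or less. The single-exon gene junbb had 0% of its reads outside exons in each library of experiment 1 and 9.09% to 14.0% in experiments 2 to 4, which bears on levels of junbb set across experiments. The same split was seen at a smaller size in jund, also a single exon, with 0% in experiment 1 and 0.602% to 1.18% in experiments 2 to 4.

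**Figure D1:**
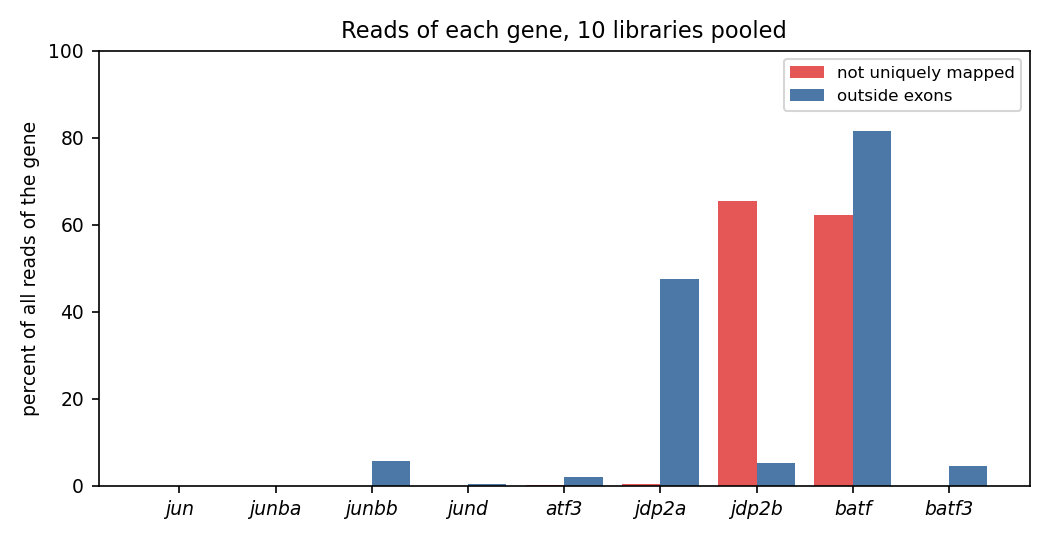
Percent of all reads of each gene, pooled over the 10 libraries, that were not uniquely mapped (red bars) or lay outside exons (blue bars). The bars of jdp2b and batf stand out for reads that were not uniquely mapped, and those of jdp2a and batf (47.5% and 81.6%) for reads outside exons.

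Levels were compared between genes as TPM, which scales for exon length. The most abundant member in each of the 10 libraries was jun, the founding JUN gene, with a mean of 115 TPM and a range of 44.1 to 185. Below it stood junba at a mean of 41.7 TPM (2.91 to 70.6), atf3 at 33.9 (2.48 to 142), jund at 22.9 (4.74 to 58.9) and junbb at 22.7 (4.53 to 42.7). The order of these 4 changed from library to library and their ranges overlapped. The JDP2 genes followed, with jdp2b at a mean of 5.63 TPM (1.59 to 11.8) and jdp2a at 3.54 (2.25 to 4.999), and their ranges also overlapped. The BATF genes were lowest, with batf3 at 1.01 TPM (0.148 to 2.43) and batf at 0.298 (0.0961 to 0.607). Of the summed TPM of the 4 JUN genes, jun made up 78.4% in the uninjured WT library, 71.2% in the uninjured dusp6 mutant library and 45.8% to 64.3% in the 8 libraries at 3 dpa.

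**Figure D2:**
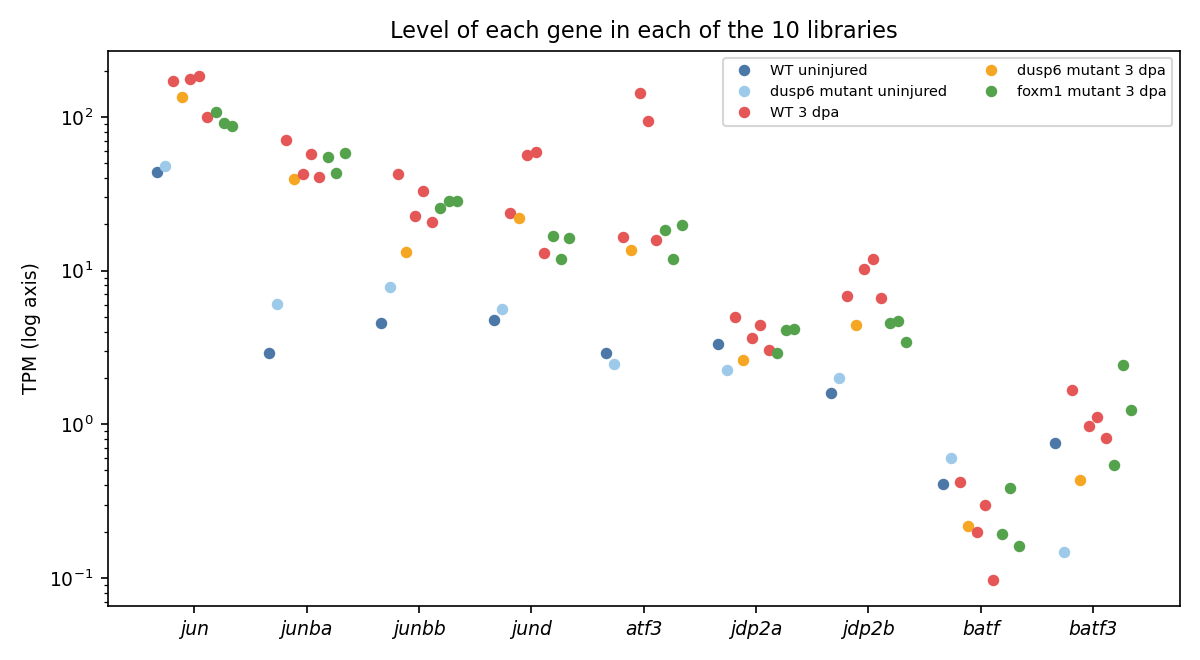
TPM of each of the 9 genes (log axis) in each of the 10 libraries, with 1 point per library and colours for the groups. In each library jun is the highest member, at 44.1 to 185 TPM, and WT replicates 2 and 3 lie far above the other 3 dpa libraries in atf3, at 142 and 94.5 TPM.

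The first comparison asked which members differed between injured and uninjured ventricles. All 4 JUN genes were higher in both 3 dpa libraries of experiment 1 than in both uninjured libraries, as were 28% of all genes tested. Levels between libraries are given as CPM after TMM scaling. The fold changes are from edgeR's quasi-likelihood F test, which tested 20408 genes with injury state as the only term, so that the WT and dusp6 mutant libraries of a state served as its replicates. The thresholds of the study were used for a call, a p of 0.01 or less after Benjamini-Hochberg adjustment together with a log2 fold change of 0.59 or more in either direction. In whole ventricles, a change in the number of cells of a type and a change in RNA per cell cannot be told apart.

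For jun, the uninjured libraries stood at 58.5 CPM (WT) and 67.5 CPM (dusp6 mutant), and the 3 dpa libraries at 164 and 156 CPM. The fold was thus alike in WT (2.80) and dusp6 mutant hearts (2.31), and the joint log2 fold change was 1.35 (SE 0.21, adjusted p = 0.0748). Levels of junba were 3.08 and 6.76 CPM in uninjured WT and dusp6 mutant hearts and 53.6 and 36.5 CPM at 3 dpa. With a log2 fold change of 3.21 (SE 0.46, adjusted p = 0.0705), junba had the largest difference of the 9 members, and the fold was 17.4 in WT and 5.40 in dusp6 mutant hearts. Its paralogue junbb stood at 4.33 and 7.92 CPM in uninjured hearts and at 29.3 and 11.1 CPM at 3 dpa. The 2 genotypes were unlike here, with a fold of 6.76 in WT and 1.40 in dusp6 mutant hearts, and the joint log2 fold change of 1.73 had an SE of 0.57 (adjusted p = 0.187). The levels of jund, a JUN gene that in mammals is present in most resting cells, were 19.8 and 24.7 CPM in uninjured hearts and 71.3 and 80.2 CPM at 3 dpa. The log2 fold change of jund was 1.77 (SE 0.21, adjusted p = 0.0674), with nearly equal folds in WT and dusp6 mutant hearts of 3.61 and 3.25.

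The stress-response gene atf3 was nearly equal between the genotypes in both states. It stood at 5.39 CPM in the WT and 5.03 CPM in the dusp6 mutant uninjured library and at 22.7 and 23.0 CPM at 3 dpa, a log2 fold change of 2.13 (SE 0.21, adjusted p = 0.0674). The 2 JDP2 paralogues differed from each other. Levels of jdp2b were 1.76 and 2.36 CPM in uninjured hearts and 5.51 and 4.28 CPM at 3 dpa (log2 fold change 1.26, SE 0.36, adjusted p = 0.151). Counted on uniquely mapped reads alone, the log2 fold change of jdp2b was 0.81 (SE 0.41, adjusted p = 0.337, with a range over all settings of 0.0101 to 0.682). Levels of jdp2a were 6.54 and 5.20 CPM in uninjured hearts and 5.24 and 5.47 CPM at 3 dpa, so that the groups overlapped. Its log2 fold change was -0.13, with a 95% interval from -0.85 to 0.59.

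The BATF genes were near the limit of detection. Levels of batf were 2.04 and 1.14 CPM in uninjured hearts and 0.915 and 1.28 CPM at 3 dpa, and those of batf3 were 0.365 and 0.0762 CPM and 0.631 and 0.222 CPM. On these counts of all reads, both pairs of groups overlapped. On exon reads batf was lower in both 3 dpa libraries, at 0.278 and 0.438 CPM in uninjured hearts and 0.205 and 0.130 CPM at 3 dpa. The quasi-likelihood test on exon reads gave batf a log2 fold change of -1.07 (SE 0.65, adjusted p = 0.385). On all reads, the log2 fold change was -0.54 for batf (95% interval -1.80 to 0.72) and 0.94 for batf3 (95% interval -1.49 to 3.38). With 2 against 2 libraries, the interval of batf thus holds a several-fold lower level and that of batf3 a several-fold difference in either direction.

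**Figure D3:**
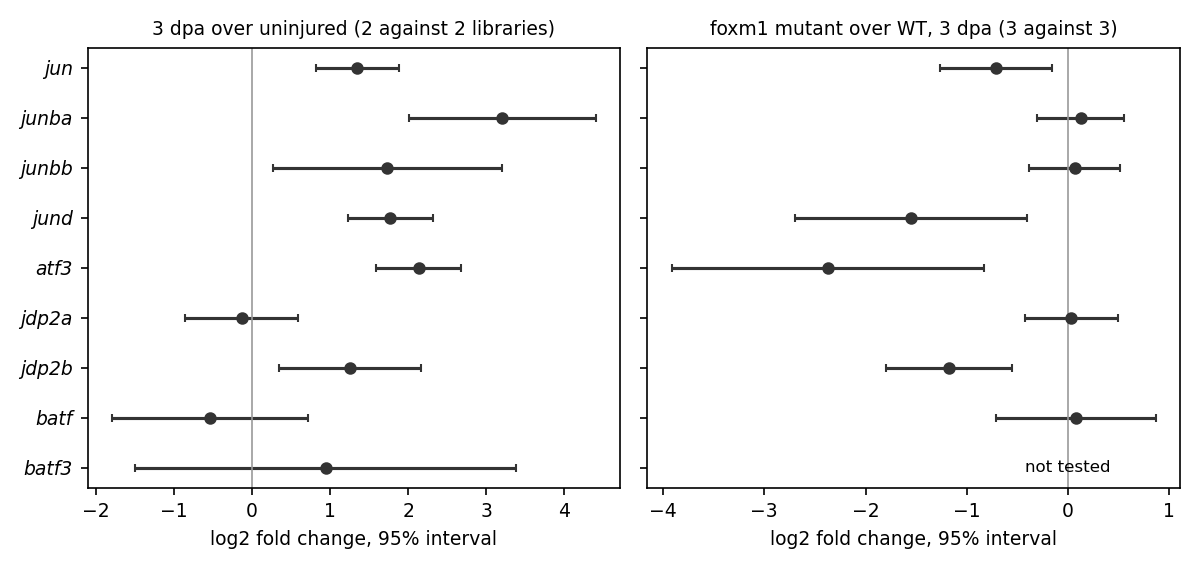
Log2 fold change of each gene with its 95% interval from edgeR's quasi-likelihood fit, at 3 dpa over uninjured hearts (left, 2 against 2 libraries) and in foxm1 mutant over WT hearts at 3 dpa (right, 3 against 3). On the left the 4 JUN genes, atf3 and jdp2b have intervals above 0, and on the right the intervals of jun, jund, atf3 and jdp2b lie below 0, although none of the plotted genes passed the adjusted threshold in either comparison.

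With these thresholds the quasi-likelihood test called 0 of the 9 members and 0 of all 20408 genes (0% in each direction), the smallest adjusted p of any gene being 0.0674. The groups did not overlap, with 3 dpa higher, for 6 of 9 members, against 28% of all genes, and the same 6 (jun, junba, junbb, jund, atf3 and jdp2b) had an unadjusted p under 0.05, against 13.6% of all genes. Of the 9, 7 had a fold change above 0, against 49.6% of all genes. The median log2 fold change was 1.35 over the 9 members and -0.0046 over all genes tested. DESeq2 called jun, junba, jund and atf3 higher, as against 6.15% of all genes, with adjusted p from 3.23e-11 to 1.38e-05. The likelihood ratio test of edgeR called the same 4, against 5.5% of all genes, as did the quasi-likelihood test with the threshold relaxed to 0.1, against 3.82%. The spread taken from all 10 libraries in a single fit left only junba called (adjusted p = 0.000990, with 5.94% of all genes called higher). With the WT libraries of experiments 2 to 4 added to the 3 dpa group, an alternative chosen after seeing the data, jun, junba and junbb were called, against 7.9% of all genes. Over 21 settings, adjusted p ranged from 2.56e-09 to 0.355 for junba, from 3.23e-11 to 0.363 for atf3, from 4.76e-08 to 0.408 for jund and from 1.38e-05 to 0.548 for jun.

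Markers of several cell types moved with injury beside these genes. The summed TPM of 12 epicardial and fibroblast markers was 263 to 298 in the uninjured and 2024 to 5977 in the 3 dpa libraries of experiment 1, and none of them was at 0 in any library. The sum of 13 macrophage markers was 382 to 439 and 906 to 1067, that of 7 neutrophil markers 8.38 to 15.6 and 26.0 to 105, and that of 14 cardiomyocyte markers 82271 to 83960 and 38969 to 57281. For lymphocytes and dendritic cells, in which batf and batf3 are best known, the sum of 20 markers was 14.2 to 14.9 in uninjured and 25.7 to 28.5 in 3 dpa libraries. In some of these libraries cd8a or cd8b was at 0, whereas rag1 was at 0 only in some libraries of experiments 2 to 4. The markers of this list did not move together. Of 17 tested, 8 had a log2 fold change above 0 and 9 below, with a median of -0.26. The most abundant of them was irf8, with 7.81 and 9.33 CPM in uninjured and 15.9 and 17.1 CPM in 3 dpa hearts of WT and dusp6 mutants. Its mean over the 10 libraries was 18.3 TPM, against 2.85 TPM for the next marker, so irf8 weighs most in the sum. The part of these shifts in the levels of the members was not tested.

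Among the partners and regulators of the JUN proteins, the FOS genes were mostly higher at 3 dpa. Of 6 FOS genes tested, 5 were higher at 3 dpa with unadjusted p under 0.05 and 0 were called, and their median log2 fold change was 2.25. The FOS gene fosab stood at 2.45 and 2.78 CPM in uninjured and 12.1 and 7.78 CPM in 3 dpa hearts of WT and dusp6 mutants (log2 fold change 1.93, SE 0.34, adjusted p = 0.0858), and fosl2 and fosl1a had log2 fold changes of 3.06 and 3.70. Other leucine zipper partners had 5 of 27 higher and 1 lower at unadjusted p under 0.05, against 13.6% and 7.38% of all genes, and a median of 0.28, and the stress-induced atf4a and atf4b had values of 0.28 and 0.41. The JNK pathway and JUN regulators, which act mostly through phosphorylation, had 1 of 22 higher and 1 lower and a median of -0.15. The ERK cascade had 1 of 15 in each direction and a median of -0.16. Other immediate early genes had 18 of 31 higher and 0 lower, with a median of 1.36, and socs3a, an inhibitor of cytokine signalling, had a log2 fold change of 2.52 (SE 1.23). Genes known as AP-1 targets in mammals, chosen as examples, had 18 of 24 higher and 0 lower and a median of 1.67, with the fibronectin genes fn1a and fn1b at 5.78 and 3.62. None of these genes was called, and fn1b is also among the fibroblast markers.

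Hearts at 7 dpa were compared through the authors' table of 7 dpa against uninjured hearts, which gives for each gene the larger of the group means as RPKM (reads scaled for exon length and depth), with no SD or number of libraries. A value above the uninjured mean of the libraries is therefore the authors' mean at 7 dpa. RPKM has no TMM scaling, so its ratios differ from the fold changes given above. For jun the RPKM ratio of 3 dpa to uninjured was 3.19, against a fold of 2.55 after TMM scaling. For jdp2a this ratio was 1.31, against a log2 fold change of -0.13 after TMM scaling. Small ratios at 7 dpa are therefore not to be read as differences. The labels list 1 WT and 1 dusp6 mutant sample at 7 dpa, and neither was among the 10 libraries with a table. Of the 9 members, 7 lay above their uninjured mean at 7 dpa, against 54.7% of the 20408 genes tested at 3 dpa. All 7 lay below their mean at 3 dpa, a position between the means that 35% of those genes had. For jun, the mean RPKM was 23.8 in uninjured hearts, 76.0 at 3 dpa and 28.5 at 7 dpa. The mean RPKM of jund was 2.67 in uninjured hearts, 11.3 at 3 dpa and 3.97 at 7 dpa, and the ratio of 7 dpa to uninjured was 1.198 for jun and 1.49 for jund. The ratio was at least 1.5 for 3 members, against 20.4% of those genes. They were junba, with 2.31, 27.2 and 11.8 RPKM, junbb, with 3.20, 13.8 and 8.93 RPKM, and atf3, with 1.38, 7.47 and 4.96 RPKM in uninjured hearts, at 3 dpa and at 7 dpa. Their ratios of 7 dpa to uninjured were 5.10, 2.79 and 3.59. Levels of jdp2b were 0.921, 2.79 and 1.22 RPKM, and those of jdp2a were 1.44, 1.89 and 1.44 RPKM, so that jdp2a at 7 dpa exceeded its uninjured mean by a factor of only 1.0006. Both batf and batf3 were at or below their uninjured mean at 7 dpa. The comparisons at 3 and 7 dpa share the uninjured libraries, and no test was made between the time points.

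**Figure D4:**
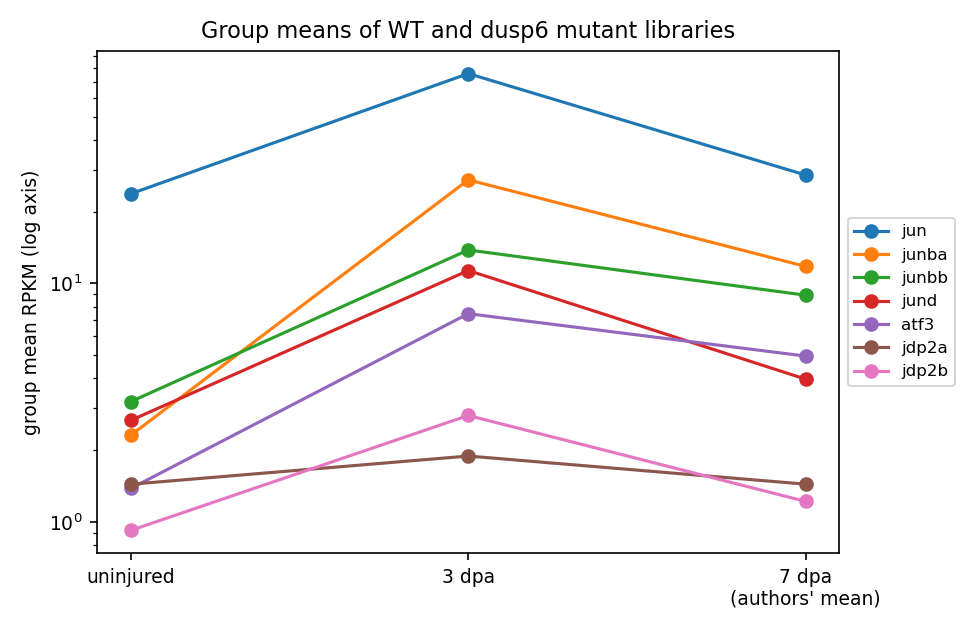
Mean RPKM (log axis) of 7 genes in uninjured hearts, at 3 dpa and at 7 dpa, where the 7 dpa value is the authors' group mean without an error. At 7 dpa junba, junbb and atf3 lie at 11.8, 8.93 and 4.96 RPKM, well above their uninjured means, whereas jun at 28.5 RPKM is near its uninjured mean of 23.8.

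The second comparison asked whether loss of foxm1, a forkhead factor that drives cell division genes, went with a different level of the members at 3 dpa. The values of 4 members, jun, jund, atf3 and jdp2b, were lower in the mean of the foxm1 mutants, but for jun, jund and atf3 WT replicate 4 lay within the mutant range. For atf3, WT replicates 2, 3 and 4 stood at 217, 146 and 23.3 CPM, and foxm1 mutant replicates 2, 3 and 4 at 27.3, 17.4 and 30.0 CPM. WT replicate 4 thus lay within the mutant range, as did WT replicate 1 of experiment 1 at 22.7 CPM. The means were 129 ± 98.1 CPM (SD, n = 3) in WT and 24.9 ± 6.65 CPM (SD, n = 3) in mutant hearts. Levels of jund followed the same division. The WT libraries 2, 3 and 4 had 194, 206 and 43.4 CPM, against 56.6, 40.0 and 55.1 CPM in the mutants. WT replicate 1 stood between them at 71.3 CPM. For jun, WT replicates 2, 3 and 4 had 193, 203 and 105 CPM and the mutants 115, 97.0 and 93.7 CPM, and WT replicate 1 had 164 CPM. Here too the WT and mutant ranges overlapped, through WT replicate 4 and mutant replicate 2.

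Only jdp2b among the members had groups that did not overlap. WT replicates 2, 3 and 4 had 9.35, 11.2 and 5.80 CPM and the mutants 4.29, 4.29 and 3.08 CPM, with means of 8.77 ± 2.73 CPM (SD, n = 3) and 3.89 ± 0.699 CPM (SD, n = 3). WT replicate 1 had 5.51 CPM. Across all genes, 4.33% had groups that did not overlap with the mutants lower. The JUNB paralogues showed no such division. Levels of junba were 37.0, 50.8 and 34.2 CPM in WT and 46.7, 36.3 and 50.3 CPM in mutant hearts, and those of junbb were 20.4, 30.1 and 17.9 CPM in WT and 22.8, 23.6 and 25.4 CPM in mutant hearts. The ranges of both overlapped between the genotypes. In jdp2a, WT libraries had 3.81 to 5.33 CPM and mutant libraries 4.08 to 4.95 CPM.

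**Figure D5:**
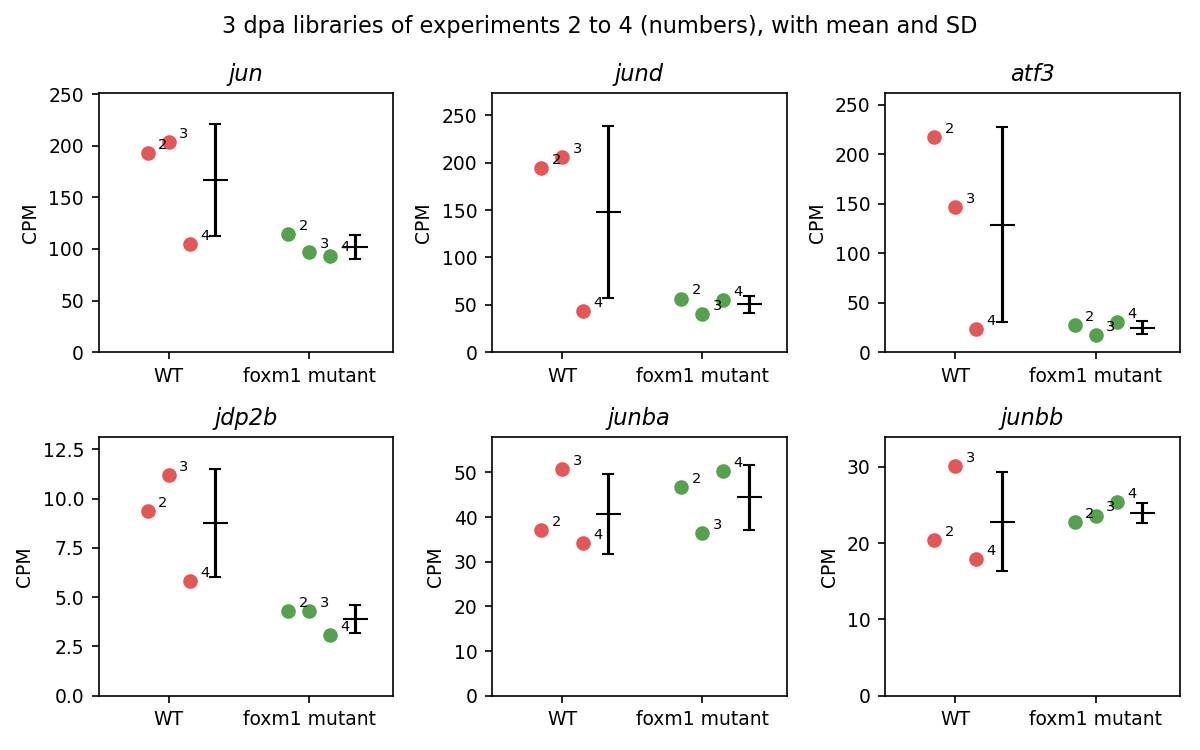
CPM of 6 genes in the 3 dpa libraries of experiments 2 to 4, with 1 numbered point per library for WT and foxm1 mutant hearts and the mean and SD beside them. In jun, jund and atf3 WT replicate 4 lies within the mutant range (105, 43.4 and 23.3 CPM), in jdp2b all WT points lie above all mutant points, and in junba and junbb the groups overlap.

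The test was edgeR's quasi-likelihood F test on 17618 genes, with the same fold threshold for a call and an adjusted p of 0.05 or less. The log2 fold change in foxm1 mutants was -2.37 for atf3 (SE 0.67, adjusted p = 0.628), -1.55 for jund (SE 0.50, adjusted p = 0.681), -1.18 for jdp2b (SE 0.27, adjusted p = 0.496) and -0.72 for jun (SE 0.24, adjusted p = 0.737). For the remaining members tested it was 0.13 for junba (95% interval -0.30 to 0.56), 0.07 for junbb (-0.38 to 0.52), 0.03 for jdp2a (-0.43 to 0.49) and 0.08 for batf (-0.71 to 0.86). With 4 to 18 reads per library in experiments 2 to 4, batf3 did not pass the filter on low counts and was not tested.

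None of the 8 members tested was called, as against 2 genes called lower (0.0114%) and 0 called higher (0%) over all genes. Those with an unadjusted p under 0.05 were jun, jund, atf3 and jdp2b, all lower, against 2.88% of all genes in that direction. DESeq2 called jdp2b alone (adjusted p = 0.0222, 0.289% of all genes), and the likelihood ratio test called jdp2b and atf3 (adjusted p = 0.0220 and 0.0455, 0.295% of all genes). These calls counted all reads, and each mutant library held only 25 or 26 uniquely mapped reads of jdp2b. On uniquely mapped reads alone, the quasi-likelihood test gave jdp2b a log2 fold change of -1.42 (SE 0.31, adjusted p = 0.468) and did not call it. Without WT replicate 4 the quasi-likelihood test called all 4, with log2 fold changes of -2.87 for atf3, -1.98 for jund, -1.40 for jdp2b and -0.96 for jun (adjusted p = 0.00648, 0.00596, 0.0352 and 0.0298, and 0.69% of all genes called lower). With WT replicates 2 and 3 both left out, an alternative chosen after seeing the data, the values were 0.09 for atf3, 0.21 for jund, -0.59 for jdp2b and -0.05 for jun, and none was called. Adjusted p over the 22 settings ranged from 0.00648 to 1.00 for atf3, 0.00596 to 1.00 for jund, 0.0220 to 1.00 for jdp2b and 0.0298 to 1.00 for jun.

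The glucocorticoid-induced gene fkbp5, chosen because it set the same WT libraries apart in earlier results of these data, had 434, 1142, 1470 and 111 CPM in the WT libraries numbered 1 to 4 and 107, 180 and 168 CPM in the mutants. The summed TPM of 19 glucocorticoid-responsive genes was 1787, 2127 and 908 in WT replicates 2, 3 and 4 and 700.1 to 893 in the mutants, and 18 of 18 tested had values below 0, against 50.1% of all genes, with a median log2 fold change of -0.79. Both the sum and the count include fkbp5, which had 458, 596 and 37.0 TPM in WT replicates 2, 3 and 4 and 36.0 to 74.8 TPM in the mutants. The list was chosen with earlier results of these data known, so the count is not independent of them. Not every gene of this list divided the libraries as fkbp5 did. The clock gene per1b, chosen after its values were seen, had 173, 176 and 60.8 CPM in WT replicates 2 to 4 and 129, 212 and 59.5 CPM in the mutants, low in both genotypes of experiment 4. The part of these genes in the values of atf3 and jund was not tested. The FOS genes fosab (25.8, 34.5 and 12.7 CPM in WT replicates 2, 3 and 4, and 9.69 to 13.2 in mutants) and fosb (3.90, 4.43 and 1.36 CPM, and 0.714 to 1.01 in mutants) were also highest in WT replicates 2 and 3. Highest in WT replicates 2 and 3 was also fosl1a, at 16.6 and 15.9 CPM, but WT replicate 4 at 6.53 CPM lay below the mutants at 14.3, 8.64 and 13.8 CPM. The gene fosl2 was not divided in this way, with 67.3, 68.0 and 36.1 CPM in WT and 72.7, 43.7 and 58.3 CPM in mutant hearts. Of 5 FOS genes tested, 2 had values above 0 and 3 below, with a median of -0.09. Of the MAPK phosphatases, which switch off JNK and ERK, 3 of 10 were lower with unadjusted p under 0.05, against 2.88% of all genes. The log2 fold changes of dusp1, dusp6 and dusp4 were -1.26, -0.84 and -1.49. All were highest in WT replicates 2 and 3, at 175 and 216 CPM (dusp1), 370 and 409 (dusp6) and 50.4 and 62.98 (dusp4). WT replicate 4 lay nearer the mutants, at 86.7, 242 and 17.08 CPM, but above their highest values of 82.7, 201 and 16.97 CPM. The gene dusp1 is also on the glucocorticoid-responsive list, so these lists overlap. Other immediate early genes had 7 of 31 lower and 2 higher with unadjusted p under 0.05, against 2.88% and 2.75% of all genes. Their median log2 fold change was -0.38, with 23 below 0 and 8 above. This list shares cebpd with the glucocorticoid-responsive list. Among the JNK regulators 0 of 22 and in the ERK cascade 0 of 15 had an unadjusted p under 0.05, and the examples of AP-1 targets had 2 of 26 higher and 5 lower, against 2.75% and 2.88% of all genes, with a median of -0.09.

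The sums of cardiomyocyte, epicardial and fibroblast, and macrophage markers differed less between these groups than with injury. For lymphocyte and dendritic markers the sums overlapped, at 28.8 to 36.0 TPM in WT replicates 2 to 4 and 32.8 to 65.4 in mutants. Of 11 of these markers tested, 9 had a log2 fold change above 0, with a median of 0.32. The median of -0.26 with injury was over 17 markers tested, so these medians are of unlike sets. The summed TPM of cardiomyocyte markers was 49721 to 54969 in WT replicates 2 to 4 and 48462 to 53968 in foxm1 mutants, and that of epicardial and fibroblast markers was 3427 to 3486 and 2925 to 3295. Macrophage markers summed to 1072 to 1393 in WT and 1149 to 2053 in mutants, and neutrophil markers to 41.0 to 73.6 and 75.5 to 249, with mutant replicate 3 highest in both. The mutant replicate 3 also had the highest level of batf3, at 0.943 CPM against 0.313 to 0.505 CPM in WT replicates 2 to 4. This rested on 18 reads, against 6 to 9 in these WT libraries. The mutant replicates 2 and 4 had 0.212 and 0.491 CPM, and WT replicate 1 had 0.631 CPM. The sum of lymphocyte and dendritic markers was also highest in mutant replicate 3, at 65.4 TPM against 28.8 to 36.0 TPM in WT replicates 2 to 4. The part of the marker shift in the level of batf3 was not tested.

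The third comparison set dusp6 mutant against WT hearts across injury states, since Dusp6 is a phosphatase that inactivates ERK. It used the same 4 libraries of experiment 1 as the injury comparison, so that the comparisons are not independent. With 2 libraries a genotype and state as a second term, 0 of 9 members and 0 of 20408 genes (0% in each direction) were called by the quasi-likelihood test. DESeq2 and the likelihood ratio test also called 0 members, against 0.735% and 0.843% of all genes called higher and 0.701% and 1.02% called lower. The log2 fold change in dusp6 mutants was 0.04 for jun (95% interval -0.57 to 0.66), -0.07 for atf3 (-0.64 to 0.50) and 0.22 for jund (-0.30 to 0.74). The intervals were wider for junba (0.23, from -0.92 to 1.39) and junbb (-0.31, from -1.85 to 1.24). With the spread taken from all 10 libraries, the intervals were -1.73 to 1.65 for atf3 and -1.03 to 1.52 for jund. Those of jun, junba and junbb were then -0.58 to 0.72, -0.59 to 1.08 and -1.36 to 0.77. The 4 libraries therefore set no firm bound on a dusp6 difference in atf3 or jund. In the fit of the 4 libraries, only batf3 had an unadjusted p under 0.05, against 3.97% of all genes in that direction. Its log2 fold change was -1.84 (SE 0.63, adjusted p = 0.617). It rested on 4 to 40 reads per library over the series.

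The injury difference itself was compared between the genotypes in a fit of all 10 libraries, in which the spread came from experiments 2 to 4 and the single libraries of experiment 1 were assumed to vary like those. Of 20049 genes, 24 (0.12%) had a higher and 27 (0.135%) a lower injury difference in dusp6 mutants, and 0 of 9 members were called. The members furthest from 0 were the JUNB paralogues. For junbb, which was at 4.33 and 29.3 CPM in WT and at 7.92 and 11.1 CPM in dusp6 mutant hearts, the difference was -2.27 on the log2 scale (SE 0.48, adjusted p = 0.108). For junba it was -1.69 (SE 0.47, adjusted p = 0.198). Both had an unadjusted p under 0.05, against 6.5% of all genes in that direction. In both paralogues the uninjured level was higher in the dusp6 mutant library and the 3 dpa level lower than in WT. For jun and jund the difference was -0.28 (95% interval -1.60 to 1.05) and -0.15 (-2.83 to 2.53), and for atf3 it was 0.12 (-3.46 to 3.70). The sum of epicardial and fibroblast markers was also lower in the dusp6 mutant than in the WT library at 3 dpa, at 2024 against 5977 TPM, and its part in the JUNB values was not tested.

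The genes whose pattern over the 10 libraries was most like that of a member were taken from 16489 genes with a mean of at least 1 CPM, by Pearson correlation of log2(CPM + 1), as a description. Injury and WT replicates 2 and 3 both shape these patterns, and what libraries of the same experiment number share is not given. For jun they were pim1 (r = 0.986), a kinase gene, gpt2 (0.980) and ccnl1a (0.976). The patterns nearest to junba were those of glo1 (0.992), ckba (0.988) and cfl1l (0.986), which were also high in each 3 dpa library, and those nearest to junbb were cnp (0.985), arpc2 (0.980) and pgd (0.974). The genes nearest to jund were itpkcb (0.982), peli1a (0.982) and spry4 (0.977), and those nearest to atf3 were otud1 (0.984), s1pr5a (0.976) and slc25a25a (0.973). All of the latter 6 were highest in WT replicates 2 and 3, as spry4, an inhibitor of receptor kinase signalling, shows with 120 and 143 CPM there against 31.9 CPM in WT replicate 4 and 30.8 to 36.3 CPM in the mutants. Between members, r was 0.960 for jund and atf3, 0.950 for jun and jund and 0.931 for junba and junbb, against 0.679 for junba and atf3.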

How the data were processed

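Total RNA from zebrafish ventricles was sequenced at more than a single centre, and which library was sequenced where is not given. The authors used CLC Genomics Workbench with the GRCz11 genome for mapping and gene-level counting. The deposited tables hold read counts (all, uniquely mapped, exon and intron reads), TPM and RPKM for each library, and the strand setting is not given in the sources used here. The authors' comparison tables also hold fold changes and p-values, which were not used, and the larger group mean as RPKM, which was used for 7 dpa. In the table for 3 dpa this column equals the larger group mean of the libraries for all 25281 genes (relative tolerance 1e-06). The members and lists were chosen with earlier results of these data known.

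All reads of a gene were taken as its count. Low counts were removed with filterByExpr (minimum count 10, minimum total 15), and the rest were scaled with TMM and tested in edgeR 4.0.16 (R 4.3.3). SE values are the log2 fold change divided by the root of F. The alternatives were DESeq2 1.42.0, the likelihood ratio test, other scalings, filters and read classes, limma-trend (limma 3.58.1) on log2(TPM + 1) and log2(TPM + 0.1), all libraries in 1 fit, other thresholds, a block for genotype or experiment number and leaving out each library. The tests were also tried on simulated counts, with the same dispersion for every gene. Of 270 listed genes, 245 matched by name and 6 by gene ID. Genes were named by rule: all members, the 3 most abundant genes by mean TPM of each other list, foxm1, dusp6, fosab, fosb, fkbp5, and the 3 genes nearest in pattern to each of jun, junba, junbb, jund and atf3. Outside it, tnnt2a and tnni1b were named as defining heart muscle genes, and cd8a, cd8b and rag1 as markers at 0. The latter, and per1a, per1b and cry2 for their own pattern, were named after their values were seen. Sequences of promoters and proteins were not analysed here.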

Additional observations from a re-analysis of the deposited data

Results flagged for a closer look

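In the 4 WT libraries at 3 dpa, batf was lowest in replicate 4, at 0.522 CPM, against 0.898 to 0.946 CPM in replicates 1 to 3, a gap of 0.886 of the whole range, above Dixon's critical value for 4 samples. Chance alone gives such a gap in about 1 in 20 groups, and none of the other 8 members had a gap past the critical value in these 4 libraries. The count there was 10 reads.

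On all reads of a gene, the injury difference had opposite signs in the genotypes for jdp2a and batf, each with 1 library per state. The log2 ratio of 3 dpa over uninjured was -0.32 in WT and 0.072 in dusp6 mutant hearts for jdp2a, and -1.15 and 0.16 for batf. Both patterns depended on intron reads. On exon reads batf went from 0.278 to 0.205 CPM with injury in WT and from 0.438 to 0.130 CPM in dusp6 mutant hearts, lower in both. For jdp2a the signs on exon reads were swapped, from 3.11 to 3.34 CPM in WT and from 2.21 to 2.15 CPM in dusp6 mutant hearts. Within each genotype these ratios were not tested, since each rests on single libraries. In the fit of all 10 libraries the difference between the genotypes was 0.39 for jdp2a (edgeR adjusted p = 0.792) and 1.31 for batf (adjusted p = 0.509), and neither was called.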

How the results depend on the processing

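Counts of calls depended on the tool. At 3 dpa, 0 genes were called higher and 0 lower by edgeR's quasi-likelihood test, against 1256 and 268 by DESeq2, 1122 and 154 by the likelihood ratio test, 1141 and 219 with all 10 libraries in a single fit, 779 and 89 with the threshold relaxed to 0.1, and 1516 and 580 with the WT libraries of experiments 2 to 4 added, an alternative chosen after seeing the data. Members called higher numbered 4, 4, 1, 4 and 3 in that order. Leaving out each library gave 0 to 168 genes higher, the most without the dusp6 mutant library at 3 dpa, and 0 to 5 lower. In foxm1 mutants, 0 genes higher and 2 lower became 66 and 51 by DESeq2 and 71 and 52 by the likelihood ratio test, with 1 and 2 members lower. Only 1 was higher with limma on log2(TPM + 0.1), and 0 were lower with either limma setting, exon reads, all libraries in 1 fit, or WT replicates 2 and 3 left out. Leaving out each library gave 0 to 23 higher, 0 to 124 lower and 0 to 4 members lower, the last 2 maxima without WT replicate 4. For dusp6, 0 and 0 became 150 and 143 by DESeq2, 172 and 208 by the likelihood ratio test, 68 and 103 in the fit of all libraries, 1 and 1 without a filter, and 1 lower with library size scaling alone.

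Same-numbered WT and foxm1 libraries deviated together with correlations of 0.156, -0.0277 and 0.147, and differently numbered ones with -0.197 to 0.135. What libraries of the same number share is not given in the sources used here, so the main test did not take them as pairs. A replicate block called 0 genes higher and 1 lower.

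Signs turned for several members, most of them near 0. For jdp2a at 3 dpa the log2 fold change was 0.22 with library size scaling, 0.043 on exon reads, 0.31 and 0.39 with limma on log2(TPM + 1) and log2(TPM + 0.1), and -0.30 to 0.049 on leaving out libraries, and batf3 ranged from -0.018 to 2.47. In foxm1 mutants jdp2a was -0.0033 on exon reads, and leaving out libraries gave -0.076 to 0.16 for jdp2a, -0.081 to 0.31 for junbb and -0.15 to 0.22 for batf. With WT replicates 2 and 3 left out, jund was 0.21 and atf3 0.085, against -1.55 and -2.37 with them. For dusp6, jun was -0.10 with library size scaling and -0.11 with both limma settings, jdp2b was 0.0023 without a filter and 0.016 in the fit of all libraries, and batf was 0.031 on exon reads. Leaving out libraries, with no test possible there, gave -0.089 to 0.20 for jun, -0.57 to 1.12 for junba, -1.42 to 0.86 for junbb, -0.35 to 0.041 for jdp2a, -0.38 to 0.41 for jdp2b and -0.85 to 0.46 for batf. Where no construction of the setting shows it, the cause was not tested. Library size scaling alone moved the median log2 fold change of all genes to 0.35 at 3 dpa and -0.15 for dusp6. Depth limits batf and batf3, with at most 117 and 40 reads in a library.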
